A study of Mus musculus with 24 samples.

Results

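The genes described here are 35 mouse genes of the hypoxia response and of glycolysis. They were chosen by name, 12 for glucose uptake and the upper steps of glycolysis, 8 for its lower steps and lactate export, 11 as targets of the hypoxia-inducible factors and 4 as oxygen sensors and the factors themselves. The choice was made with earlier results of these data known. All 35 names were found among the 54532 genes of the count table, on 36 rows, because Aldoa stands on a second row with 8 to 59 counts per library that was not used. All 35 passed the filter on low counts, which kept 19253 genes. RNA was sequenced from 24 mouse samples, 6 in each of the groups PBS (buffered saline, the control), GEM, IGEL and LIGEL, all from day 24. The tissue label reads pancreatic tumour although every title names muscle. The group names are not spelled out in the labels, and which agents each group received is not stated here. The series title speaks of priming with losartan, an angiotensin receptor blocker, and of a nanocarrier that delivers chemotherapy and immunotherapy. The comparisons ask how these genes differed between each treated group and PBS and between treated groups. Strain, age, tumour model, dose and schedule are not given in the sources used here, nor whether each sample is a separate animal. P-values therefore cover the spread among these libraries alone, some of which may be technical.

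Glycolysis splits glucose into pyruvate in the cytosol, and cells short of oxygen turn the pyruvate into lactate and export it. Oxygen is sensed by prolyl hydroxylases of the Egln family, which mark the factor subunits Hif1a and Epas1 for destruction while oxygen is plentiful. When oxygen falls, the subunits escape, pair with Arnt and bind short DNA elements near glucose transporters, glycolytic enzymes, Vegfa, Bnip3 and many other genes, the hydroxylases Egln1 and Egln3 among them. The control of Hif1a itself lies largely in its protein, which RNA counts do not measure. Pancreatic tumours are known for dense stroma and poor oxygen supply.

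Libraries held 27.1 to 40.5 M counts (M, 1e6), and the 35 genes took 0.148 to 1.92% of them. Levels are CPM, counts scaled to 1e6, on the TMM-scaled total of each library. The summed level of 12 skeletal muscle genes was 12.6 to 27.0 CPM in 23 libraries and 351 CPM in IGEL replicate 4. Transcripts of 22 acinar genes, which encode digestive enzymes of the pancreas, took 0.00605 to 18.4% of the counts in 23 libraries and 42.8% in PBS replicate 5. The count columns of 6 libraries have names beginning A1_, A2_ or A3_ (3 in GEM as replicates 1 to 3, 1 in IGEL as replicate 1, 2 in LIGEL as replicates 1 and 2), called the A1 to A3 libraries below, and the other 18 have names from A7 to A24. The 6 names form 3 pairs with the suffixes _1 and _2, A1 holding IGEL replicate 1 and GEM replicate 1, A2 holding GEM replicates 2 and 3, and A3 holding LIGEL replicates 1 and 2, while every other name ends in _1. Whether libraries with a shared prefix come from separate animals is not given in the sources used here. By the chi-square of counts per gene LIGEL replicates 1 and 2 were the most alike of the 153 pairs of treated libraries (14.2), the A1 pair ranked 11 (27.5) and the A2 pair ranked 29 (47.0), all differing by more than sampling noise. The sources do not say what the column names stand for, and PBS has no A1 to A3 library. In bulk tissue, fewer cells of a type and less RNA per cell cannot be told apart.

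Promoters are shown because many of the genes lay higher together in 1 set of libraries, described further on. RefSeq promoter entries (build GRCm38.p6, the build called mm10) exist in the table used for 32 of the 35 genes, and the 250 bases before each listed start were searched on both strands for ACGTG and GCGTG, the cores of the hypoxia response element. ACGTG within CACGTG counts on both strands. A match was found in 36 of the 47 promoters of the genes (76.6%), against 38.6% of all 32851 promoters of the same length. The genes were chosen by name, partly as targets of the hypoxia-inducible factors, so this surplus is no separate evidence. The promoters of the genes were also richer in G and C, 62.4% against 53.2%. Of the 24 promoters of genes that passed the test in the A1 to A3 comparison 21 held a match (87.5%), and of the 23 promoters of the other genes 15 did (65.2%). Counted by gene, so that a gene with several starts weighs once, the shares were 18 of 19 (94.7%) and 11 of 13 (84.6%), and the G and C content was 64.3% and 60.4%. A match is a sequence description and not a measured binding site. The 4 windows below belong to genes with 1 listed start whose window overlaps no exon of GENCODE mouse release 21. Egln3, P4ha2 and Hk2 had the smallest p of those that passed the A1 to A3 comparison, and Hif1a was the only gene with such a window that did not. Each window runs 5′ to 3′ on the strand of its gene, with matches on either strand in capitals.

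Egln3: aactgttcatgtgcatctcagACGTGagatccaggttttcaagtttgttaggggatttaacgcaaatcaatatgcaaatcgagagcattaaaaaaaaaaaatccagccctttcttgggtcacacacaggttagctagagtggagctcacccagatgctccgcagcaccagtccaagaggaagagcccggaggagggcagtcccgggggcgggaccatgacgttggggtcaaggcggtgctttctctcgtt
P4ha2: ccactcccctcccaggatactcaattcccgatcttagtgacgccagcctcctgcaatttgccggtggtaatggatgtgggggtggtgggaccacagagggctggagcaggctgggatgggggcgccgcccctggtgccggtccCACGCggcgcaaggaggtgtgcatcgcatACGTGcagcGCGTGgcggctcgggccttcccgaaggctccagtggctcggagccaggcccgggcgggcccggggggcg
Hk2: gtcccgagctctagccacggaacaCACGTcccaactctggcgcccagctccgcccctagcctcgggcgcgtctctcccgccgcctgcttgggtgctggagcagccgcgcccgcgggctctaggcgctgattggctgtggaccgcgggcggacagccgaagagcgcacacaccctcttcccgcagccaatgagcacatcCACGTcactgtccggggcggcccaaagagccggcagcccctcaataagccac
Hif1a: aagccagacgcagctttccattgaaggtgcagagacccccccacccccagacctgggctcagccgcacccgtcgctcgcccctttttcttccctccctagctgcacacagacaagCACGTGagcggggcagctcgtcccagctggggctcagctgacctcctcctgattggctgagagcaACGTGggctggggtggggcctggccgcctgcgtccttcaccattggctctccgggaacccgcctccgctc

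The Egln3 window lies at chr12:54203875-54204124 (minus strand) and holds 1 ACGTG. The P4ha2 window at chr11:54100674-54100923 (plus strand) holds 1 ACGTG and 2 GCGTG, and lies in an intron of a longer annotated P4ha2 transcript. In the Hk2 window at chr6:82774455-82774704 (minus strand) ACGTG occurs 2 times, both on the opposite strand. The Hif1a window at chr12:73907617-73907866 (plus strand), in an intron of a longer Hif1a transcript, holds 3 counted matches, 2 of them the palindrome CACGTG read on both strands. The motif was present before genes of both kinds.

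Enzymes of glycolysis were the most abundant of the 35. Levels between genes are compared as CPM per kilobase of gene length, given as mean ± SD over the 24 libraries. Pkm, the pyruvate kinase, was highest at 453 ± 154, followed by the enolase Eno1 (394 ± 127), the lactate dehydrogenase Ldha (325 ± 102) and the phosphoglycerate kinase Pgk1 (319 ± 129.7). Aldoa (256 ± 78.1), Tpi1 (198 ± 68.2) and Pgam1 (158 ± 52.2) came next, and neighbours in this order differed by less than their SD. The least abundant were the secreted peptide Adm (1.73 ± 1.05), Ankrd37 (2.34 ± 1.44), the transporter Slc2a3 (3.22 ± 1.69) and the enolase Eno2 (3.29 ± 1.03). Within gene families 1 member led by far for the aldolases and enolases, with Aldoc at 5.15 ± 2.31 and Eno2 far below Aldoa and Eno1. The hexokinases Hk1 (31.7 ± 10.5) and Hk2 (30.5 ± 13.8) stood level within their SD, as did the factors Hif1a (25.3 ± 5.38) and Epas1 (21.8 ± 4.18). Several of these enzymes have processed copies in the mouse genome, and how reads matching more than 1 copy were counted is not given in the sources used here, so their levels are uncertain to that extent.

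**Figure D1:**
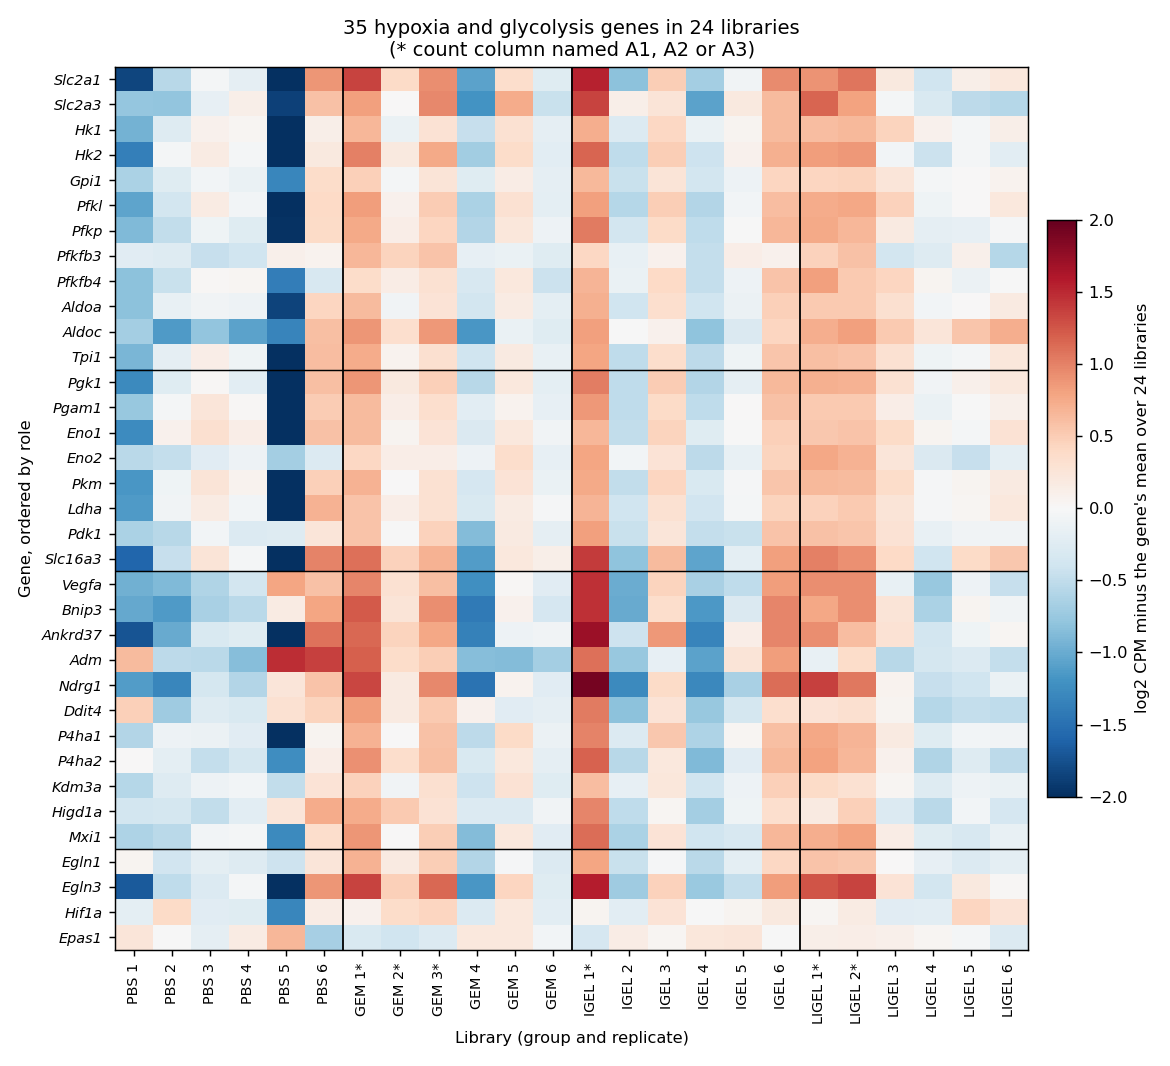
Level of each of the 35 genes (rows, ordered by role and divided by horizontal lines) in each of the 24 libraries (columns, by group and replicate, divided by vertical lines). Colour gives log2 CPM minus the mean of the gene over the 24 libraries, with values beyond 2 in either direction drawn at the end of the scale, and an asterisk marks the 6 A1 to A3 libraries. PBS replicate 5 is the lowest of the 24 libraries for 24 genes and IGEL replicate 1 the highest for 27. Rows for Epas1, Kdm3a, Hif1a and Pfkfb3 vary least, with an SD of log2 CPM of 0.28 to 0.37.

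GEM against PBS asks how the first treated group differed from control. Most members lay higher in GEM, 33 of 35, with a median log2 difference of 0.45 against -0.02 over all genes, but none passed the edgeR test and neither did any other gene (0% of 19253 called). DESeq2 called 0 genes higher or lower, and voom called 6 higher (0.0312%) and 60 lower, no member among them. Before adjustment 926 genes had p under 0.05, and 3 members were higher against 1.92% of all genes. The medians by role were 0.52 for uptake and upper glycolysis, 0.37 for the lower steps and export, 0.45 for the hypoxia targets and 0.28 for sensors and factors.

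In uptake and glycolysis, Slc2a1 (the glucose transporter of most tissues; ENSMUSG00000028645, chromosome 4, 119108711 to 119137983) was at 15 to 315 CPM (median 133) in PBS, 81.3 to 434 (median 219.8) in GEM, 96.2 to 495 (median 201) in IGEL and 129.7 to 357 (median 196) in LIGEL. The groups overlapped widely, and PBS held both a library at 15 CPM and 1 at 315 CPM. Against PBS the log2 difference (± SE, the difference divided by the square root of its F statistic) was 0.81 ± 0.52, adjusted p = 0.804 in GEM, 0.82 ± 0.52, adjusted p = 0.432 in IGEL and 0.77 ± 0.52, adjusted p = 0.399 in LIGEL. Pgk1 (ENSMUSG00000062070, chromosome X, 106187100 to 106203699) was at 96.7 to 975 CPM (median 546) in PBS, 434 to 1178 (median 739) in GEM, 425 to 1306 (median 738) in IGEL and 614 to 1054 (median 765) in LIGEL. Its differences were 0.56 ± 0.38, 0.60 ± 0.38 and 0.68 ± 0.38 for GEM, IGEL and LIGEL (adjusted p = 0.804, 0.428 and 0.304). Ldha (ENSMUSG00000063229, chromosome 7, 46841475 to 46855627), which makes lactate, was at 171 to 1619.9 CPM (median 957) in PBS, 804 to 1478 (median 1102) in GEM, 757 to 1598 (median 1103) in IGEL and 982 to 1426 (median 1169.96) in LIGEL. The highest library of all 24 for Ldha was a PBS sample, and its differences were 0.35 ± 0.33, 0.34 ± 0.33 and 0.44 ± 0.33 (adjusted p = 0.818, 0.596 and 0.446).

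Among the hypoxia targets, Vegfa (the growth factor for blood vessels; ENSMUSG00000023951, chromosome 17, 46016993 to 46032369) was at 106 to 353 CPM (median 148) in PBS, 87.3 to 404 (median 229.9) in GEM, 103 to 564 (median 212) in IGEL and 120.4 to 389.8 (median 188) in LIGEL. Its differences from PBS were 0.29 ± 0.43 in GEM, 0.43 ± 0.43 in IGEL and 0.28 ± 0.43 in LIGEL (adjusted p = 0.867, 0.617 and 0.738), none larger than its SE. Bnip3 (a mitochondrial protein of mitophagy; ENSMUSG00000078566, chromosome 7, 138890836 to 138909519) was at 12 to 46 CPM (median 17.54) in PBS, 9.86 to 62 (median 29.8) in GEM, 12 to 72.9 (median 27.8) in IGEL and 17.1 to 50.5 (median 29.5) in LIGEL. The highest library of each treated group lay above the highest PBS library while the ranges overlapped, and the differences were 0.58 ± 0.46, 0.60 ± 0.46 and 0.54 ± 0.46 (adjusted p = 0.804, 0.503 and 0.506). Adm, which encodes the vessel-dilating peptide adrenomedullin, went the other way, with -0.40 ± 0.46 in GEM, -0.32 ± 0.46 in IGEL and -0.77 ± 0.46 in LIGEL (adjusted p = 0.839, 0.742 and 0.338), at 1.31 to 6.82 CPM (median 2.72) in PBS, 1.30 to 5.59 (median 2.31) in GEM, 1.12 to 5.21 (median 2.52) in IGEL and 1.62 to 3.13 (median 1.94) in LIGEL. It was the least abundant of the genes per kilobase.

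Of the sensors and factors, Egln3 (a prolyl hydroxylase; ENSMUSG00000035105, chromosome 12, 54178981 to 54203860) was at 3.92 to 121 CPM (median 50.2) in PBS, 29.2 to 168 (median 90.1) in GEM, 39.4 to 195 (median 68.8) in IGEL and 51.1 to 167 (median 77) in LIGEL. PBS replicate 5 held the low end at 3.92 CPM, and the differences were 0.90 ± 0.56 in GEM, 0.77 ± 0.56 in IGEL and 0.95 ± 0.56 in LIGEL (adjusted p = 0.804, 0.481 and 0.33). Hif1a (ENSMUSG00000021109, chromosome 12, 73901375 to 73947530) was at 58.6 to 189.9 CPM (median 125) in PBS, 120.3 to 196 (median 161) in GEM, 125 to 177 (median 151) in IGEL and 124 to 196 (median 156) in LIGEL. Its differences were 0.28 ± 0.19, 0.22 ± 0.19 and 0.25 ± 0.19 (adjusted p = 0.804, 0.559 and 0.463). Epas1, the second factor subunit (ENSMUSG00000024140, chromosome 17, 86753907 to 86833410), was at 71.5 to 179.8 CPM (median 120.4) in PBS, 86.4 to 132 (median 102) in GEM, 90.1 to 135 (median 122) in IGEL and 94.2 to 125 (median 119.7) in LIGEL, with differences of -0.17 ± 0.16, -0.02 ± 0.16 and -0.07 ± 0.16 (adjusted p = 0.818, 0.955 and 0.838). Every treated library lay between the lowest and the highest PBS library for Epas1.

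**Figure D2:**
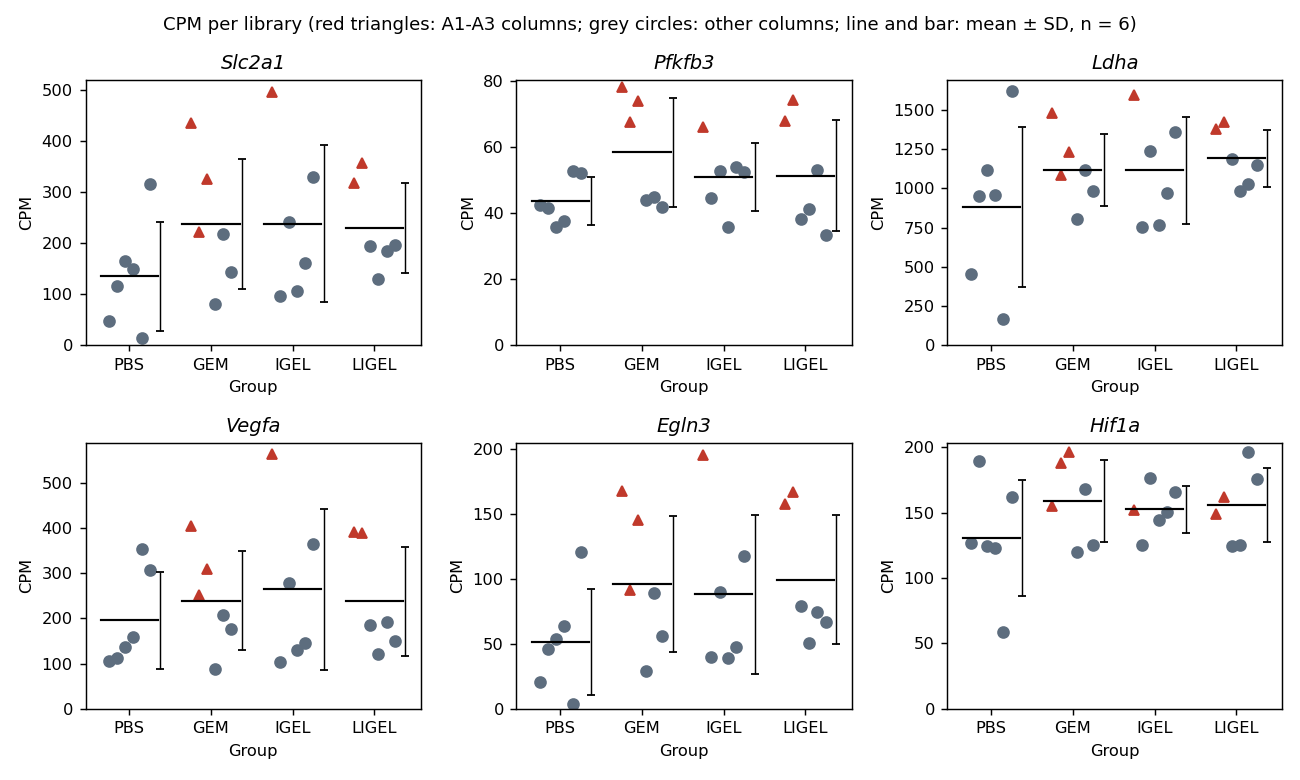
CPM per library for Slc2a1, Pfkfb3, Ldha, Vegfa, Egln3 and Hif1a in the groups PBS, GEM, IGEL and LIGEL, each point 1 library. Red triangles are the 6 A1 to A3 libraries and grey circles the others, and the line and bar give mean ± SD of each group (n = 6). Within the treated groups the red triangles sit at the top for Slc2a1, Vegfa and Egln3 in IGEL and LIGEL, and for Pfkfb3 all lie above every treated grey circle.

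The members with the smallest p in GEM against PBS were Aldoc, Eno2, Pfkfb3 and Pfkfb4. Aldoc, an aldolase best known from brain, was at 5.94 to 22.7 CPM (median 7.87) in PBS, 6.62 to 27.5 (median 16.3) in GEM, 8.57 to 26.6 (median 15.4) in IGEL and 17.8 to 26.6 (median 23.5) in LIGEL, and was 0.82 ± 0.34, adjusted p = 0.804 in GEM. Pfkfb3 and Pfkfb4 make the small molecule that switches phosphofructokinase on, and were 0.42 ± 0.20 and 0.48 ± 0.24 in GEM, with 0.52 ± 0.22 for Eno2 (adjusted p = 0.804 for each).

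IGEL against PBS gave a like picture, with 33 of 35 members higher, a median of 0.52 against -0.02 over all genes, and 0 genes called by edgeR (0%). DESeq2 called 35 genes higher (0.217%) and 50 lower, and voom 78 (0.405%) and 306, with no member among them. Before adjustment 2896 genes had p under 0.05, and 5 members were higher against 5.79% of all genes. The smallest p belonged to Pfkfb4 (0.62 ± 0.24, adjusted p = 0.306), Eno2 (0.57 ± 0.22, adjusted p = 0.306), the phosphofructokinase Pfkp (0.69 ± 0.31, adjusted p = 0.318) and P4ha1, a collagen prolyl hydroxylase (0.70 ± 0.33, adjusted p = 0.325). By role the medians were 0.63, 0.42, 0.52 and 0.22 in the order given above. The largest difference of the 35 was that of Ankrd37, 0.95 ± 0.51, at levels of 1.15 to 9.76 CPM (median 4.33) against 0.675 to 6.38 (median 1.91) in PBS.

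LIGEL against PBS had 31 of 35 members higher, a median of 0.54 against -0.03 over all genes, and again 0 genes called by edgeR (0%). DESeq2 called 207 genes higher and 1022 lower, and voom 191 and 537. Before adjustment 3945 genes had p under 0.05, and 4 members were higher against 6.28% of all genes. Aldoc stood out with 1.18 ± 0.34, adjusted p = 0.124, a fold of 2.27, and 5 of the 6 PBS libraries lay below every LIGEL library, the exception being PBS replicate 6 at 22.7 CPM. DESeq2 called Aldoc (log2 difference 1.17, adjusted p = 0.0212), alone of the 35 genes and beside 1.1% of all genes called higher. Limma voom with quality weights did so too (1.44, adjusted p = 0.00834, 0.992% of all genes). Over the 36 other settings its adjusted p ran from 0.00834 to 0.499. The next smallest p belonged to Pfkfb4 (0.73 ± 0.24, adjusted p = 0.131), Eno2 (0.58 ± 0.22, adjusted p = 0.158) and Hk1 (0.70 ± 0.32, adjusted p = 0.22). The 8 higher of 11 hypoxia targets left Adm, Ddit4 (an inhibitor of mTOR signalling, -0.16) and Higd1a (a mitochondrial protein, -0.05) below PBS.

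The 3 comparisons share the PBS samples, so their likeness is no separate evidence. PBS replicate 5 was below all 5 other PBS libraries for 11 of the 12 uptake and upper glycolysis genes, 7 of the 8 lower steps and export genes, 4 of the 11 targets and 3 of the 4 sensors and factors. It was above all 5 for Vegfa at 353 CPM, Adm, Pfkfb3 and Epas1. Without it the medians over the 35 genes were 0.31 in GEM, 0.36 in IGEL and 0.37 in LIGEL. Without the 6 A1 to A3 libraries, which PBS lacks, they were 0.10, 0.21 and 0.24, and without both they were -0.06, 0.16 and 0.13. Then GEM lay at -0.12 for Slc2a1, -0.09 for Ldha, -0.06 for Pgk1, -0.07 for Vegfa, -0.12 for Bnip3 and -0.08 for Egln3. LIGEL kept 0.99 for Aldoc (adjusted p = 0.447). No member passed the edgeR test in any of these fits.

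**Figure D3:**
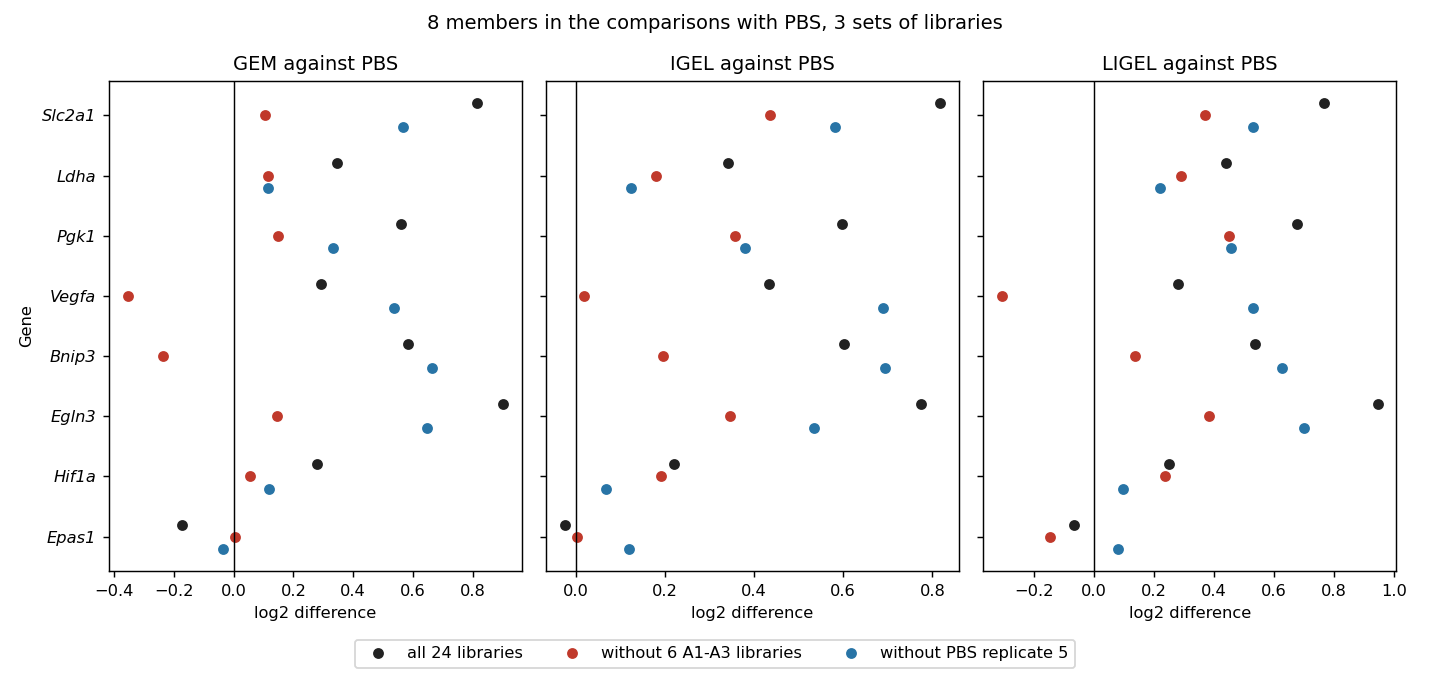
Log2 difference from PBS (x axis) of 8 genes (y axis) in GEM, IGEL and LIGEL, from the edgeR fit of all 24 libraries (black), without the 6 A1 to A3 libraries (red) and without PBS replicate 5 (blue). The red points lie closer to 0 than the black ones for Slc2a1, Pgk1 and Egln3 in all 3 panels, and those of Vegfa fall below 0 in GEM (-0.35) and LIGEL (-0.31).

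No member passed the test between treated groups. The median of the 35 was 0.04 in IGEL against GEM (25 of 35 higher), 0.05 in LIGEL against GEM (21 higher) and 0.01 in LIGEL against IGEL (18 higher), with 0 genes called in each by edgeR (0%), DESeq2 and voom. No member reached an unadjusted p under 0.05, against 305, 608 and 242 of all genes. IGEL against GEM gave -0.20 ± 0.20 for Pfkfb3, 0.15 ± 0.16 for Epas1, 0.30 ± 0.51 for Ankrd37 and 0.14 ± 0.23 for Pfkfb4, the 4 with the smallest p. LIGEL against GEM gave -0.36 ± 0.29 for Ddit4, 0.36 ± 0.33 for Aldoc, 0.24 ± 0.23 for Pfkfb4 and -0.26 ± 0.27 for Higd1a. In LIGEL against IGEL all 11 targets were lower, from -0.45 for Adm to -0.02, with -0.21 ± 0.29 for Ddit4 and -0.33 ± 0.51 for Ankrd37, while Aldoc was 0.48 ± 0.33. Epas1 was 0.10 ± 0.16 in LIGEL against GEM and -0.04 ± 0.16 in LIGEL against IGEL. Slc2a1, Ldha, Pgk1, Vegfa, Bnip3, Egln3 and Hif1a lay at most 0.17 from 0 in each of the 3 comparisons, with SEs of 0.19 to 0.55.

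The comparison by column name asks whether the libraries in A1 to A3 columns differed from the others of the same groups. In the 18 treated libraries, with group in the fit, 21 of the 35 genes passed as higher in the 6 A1 to A3 libraries than in the other 12, and none passed as lower. This counts the 6 libraries as independent. With libraries of a shared prefix summed within a group (4 against 12) 3 members passed, Pfkfb3, Higd1a and Egln1 (adjusted p = 0.0471 for each, 0.0903% of all genes called higher), at a median of 0.77. With 1 suffix kept (3 against 12) none passed, at medians of 0.64 and 0.73 (0% each). These fits were chosen after seeing the data, and they hold fewer libraries. In the summed fit the A1 pair, which spans GEM and IGEL, stayed apart. The adjusted p of single genes below is that of the 6 libraries against 12. The background was 1.65% of 18698 genes higher (309) and 2.35% lower (439). The 35 genes were chosen with earlier results of these data known, so their share above this background is no separate evidence. On library totals without a composition factor the split was 290 higher and 172 lower, with 20 members higher (1.55%), and RLE size factors gave 21 members (1.63%). The median of the 35 was 0.71 against -0.01 over all genes, and 34 of 35 were positive. By role 10 of 11 hypoxia targets passed (median 0.96), 6 of 12 uptake and upper glycolysis genes (0.67), 3 of 8 lower steps and export genes (0.57) and 2 of 4 sensors and factors (0.46). The count of calls also moved with other settings, from 33 with DESeq2 (4.74% of all genes called higher) and 33 with voom (7.78%) and 10 without the low count filter (0.518%) to 0 with the acinar level as a covariate (0%), where the median was 0.38. A fit of all 24 samples gave 2 members (0.0312%), and the same without PBS replicate 5 gave 14 (1.04%). GEM samples alone gave 0 (0% of 15488 genes) and LIGEL samples alone, whose A1 to A3 libraries share a prefix, gave 15 (1.24%). A block on replicate numbers gave 0 (0.00535%). The labels do not pair samples by number. The A1 to A3 libraries are replicates 1 to 3 only, so the block overlaps with the column names.

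**Figure D4:**
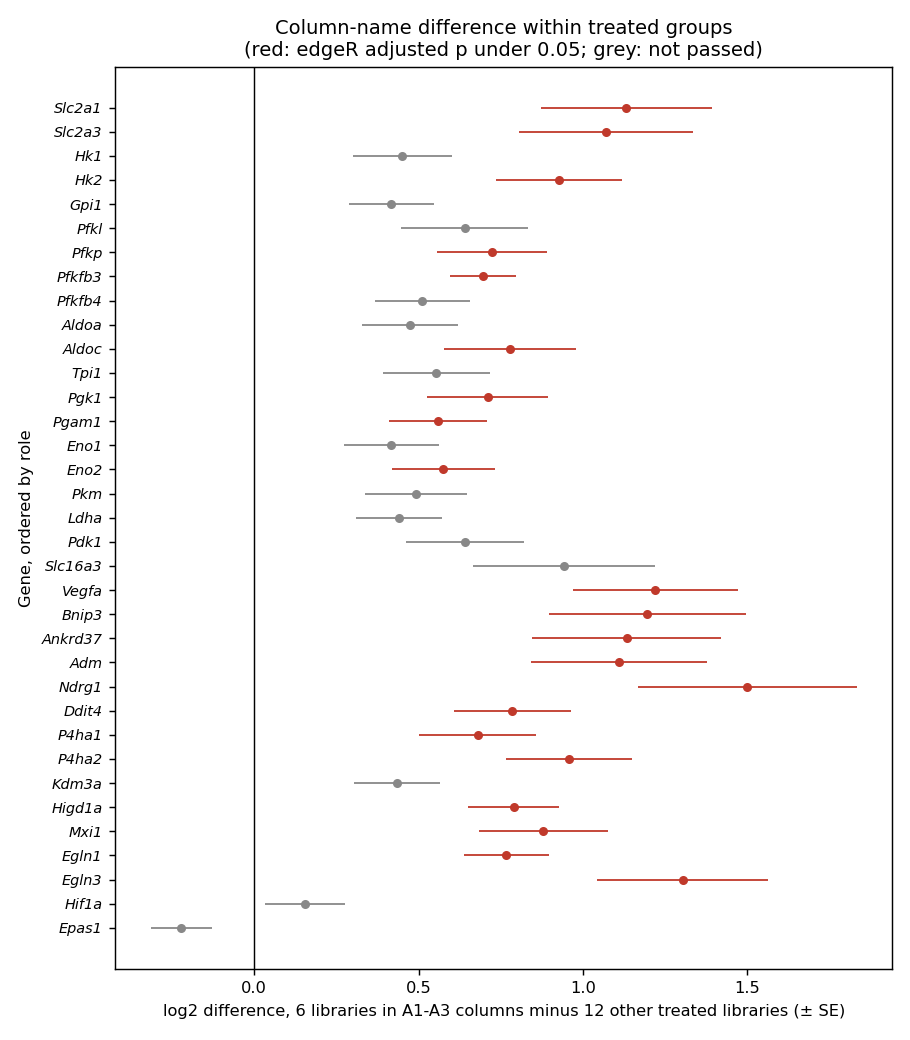
Log2 difference ± SE (x axis) of each of the 35 genes (y axis, ordered by role) between the 6 A1 to A3 libraries and the 12 other treated libraries, with group in the edgeR fit. Red marks the 21 genes with an adjusted p under 0.05 and grey the other 14. Ndrg1 lies farthest to the right at 1.5, and Epas1 is the single gene below 0.

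In uptake and upper glycolysis Slc2a1, Slc2a3, Hk2, Pfkp, Pfkfb3 and Aldoc passed. Pfkfb3 was at 66.2 to 78.2 CPM (median 70.8) in the A1 to A3 libraries and 33.4 to 54.1 (median 44.3) in the other treated libraries. All 6 A1 to A3 libraries were above all 12 others, which held for no other member and for 0.0695% of all genes, and the difference was 0.70 ± 0.10, adjusted p = 0.00787, a fold of 1.62. It passed in all 18 fits that left out 1 library, but not with 1 suffix kept (adjusted p = 0.144 and 0.286). Slc2a1 was at 221 to 495 CPM (median 341) in the A1 to A3 libraries and 81.3 to 328 (median 173) in the other treated libraries (1.13 ± 0.26, adjusted p = 0.0279). Slc2a3, the transporter of neurons and white blood cells, was at 20.4 to 51.6 CPM (median 37.7) in the A1 to A3 libraries and 8.82 to 33.8 (median 18) in the other treated libraries (1.07 ± 0.26, adjusted p = 0.0359). Both transporters were higher in every A1 to A3 library than the median of the others. Hk2, the hexokinase that traps glucose in the cell, was at 183 to 358 CPM (median 288) in the A1 to A3 libraries and 99 to 264 (median 146) in the other treated libraries (0.93 ± 0.19, adjusted p = 0.0184). Pfkp was at 230.5 to 434 CPM (median 346) in the A1 to A3 libraries and 141 to 335 (median 202) in the other treated libraries (0.72 ± 0.17, adjusted p = 0.0267), and Aldoc at 19 to 27.5 CPM (median 26.6) in the A1 to A3 libraries and 6.62 to 24.8 (median 15.4) in the other treated libraries (0.78 ± 0.20, adjusted p = 0.0403). The ranges of these 3 overlapped at the low end of the A1 to A3 libraries. The other 6 genes of this role did not pass, with Pfkl at 0.64, Tpi1 at 0.55, Pfkfb4 at 0.51, Aldoa at 0.47, Hk1 at 0.45 and the isomerase Gpi1 at 0.42 (adjusted p from 0.0568 to 0.0879).

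Of the lower steps, Pgk1, Pgam1 and Eno2 passed. Pgk1, which makes the first ATP of glycolysis, was at 736 to 1306 CPM (median 1047) in the A1 to A3 libraries and 425 to 1002 (median 651) in the other treated libraries (0.71 ± 0.18, adjusted p = 0.0405). Pgam1, the phosphoglycerate mutase, was at 291 to 489 CPM (median 383) in the A1 to A3 libraries and 187 to 399.98 (median 266) in the other treated libraries (0.56 ± 0.15, adjusted p = 0.0426). Eno2 was at 16.2 to 25.7 CPM (median 21.9) in the A1 to A3 libraries and 10.2 to 20.2 (median 13.6) in the other treated libraries (0.57 ± 0.16, adjusted p = 0.048), just under the threshold. In each of these the lowest A1 to A3 library fell below the highest of the others. The 3 enzymes most abundant per kilobase had differences of 0.42 ± 0.14 for Eno1, 0.44 ± 0.13 for Ldha and 0.49 ± 0.15 for Pkm, and did not pass (adjusted p = 0.0946, 0.0613 and 0.0719). Slc16a3, which carries lactate out of the cell, was 0.94 ± 0.28, adjusted p = 0.063, with levels of 379.8 to 730.2 CPM (median 541) in the A1 to A3 libraries and 127 to 487 (median 311) in the other treated libraries. Pdk1, which limits the use of pyruvate by mitochondria, was 0.64 ± 0.18, adjusted p = 0.0542.

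The hypoxia targets had the highest median and the most calls. Ndrg1, a stress gene, was at 177 to 584 CPM (median 357) in the A1 to A3 libraries and 56 to 336 (median 126) in the other treated libraries. Its difference of 1.5 ± 0.33, adjusted p = 0.026 was the largest of the 35, a fold of 2.83. Vegfa was at 253 to 564 CPM (median 389) in the A1 to A3 libraries and 87.3 to 364 (median 162) in the other treated libraries (1.22 ± 0.25, adjusted p = 0.0183, a fold of 2.33), and Bnip3 at 31.6 to 72.9 CPM (median 50.6) in the A1 to A3 libraries and 9.86 to 52.3 (median 23.5) in the other treated libraries (1.2 ± 0.30, adjusted p = 0.0377). High libraries among the others were IGEL replicates 3 and 6, at 278 and 364 CPM for Vegfa. Ankrd37 was at 4.06 to 9.76 CPM (median 5.39) in the A1 to A3 libraries and 1.13 to 5.89 (median 2.81) in the other treated libraries (1.13 ± 0.29, adjusted p = 0.037). Adm was at 2.17 to 5.59 CPM (median 3.28) in the A1 to A3 libraries and 1.12 to 4.37 (median 1.67) in the other treated libraries (1.11 ± 0.27, adjusted p = 0.0296). P4ha2, a collagen prolyl hydroxylase, was at 90.8 to 162 CPM (median 119) in the A1 to A3 libraries and 38.4 to 111 (median 60) in the other treated libraries (0.96 ± 0.19, adjusted p = 0.0172). The related P4ha1 had 0.68 ± 0.18, adjusted p = 0.0426. Smaller differences were those of Mxi1, an antagonist of Myc (0.88 ± 0.20, adjusted p = 0.0258), Higd1a (0.79 ± 0.14, adjusted p = 0.0111) and Ddit4 (0.78 ± 0.18, adjusted p = 0.0263). The histone demethylase Kdm3a did not pass (0.43 ± 0.13, adjusted p = 0.0657), at 109.7 to 177 CPM (median 147) in the A1 to A3 libraries and 86.9 to 159.8 (median 106) in the other treated libraries.

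Among sensors and factors the hydroxylases Egln3 and Egln1 passed and the factor subunits did not. Egln3 was at 91.4 to 195 CPM (median 162) in the A1 to A3 libraries and 29.2 to 118 (median 61.4) in the other treated libraries (1.3 ± 0.26, adjusted p = 0.0172, a fold of 2.47). Egln1, the main oxygen sensor, was at 63.6 to 97.4 CPM (median 83) in the A1 to A3 libraries and 37.6 to 74.9 (median 49.3) in the other treated libraries (0.77 ± 0.13, adjusted p = 0.0104). For both, 5 of the 6 A1 to A3 libraries were above every other treated library, and IGEL replicate 6 was the 1 library of the others that reached into their range. Hif1a was at 149 to 196 CPM (median 159) in the A1 to A3 libraries and 120.3 to 196 (median 148) in the other treated libraries, and the groups overlapped over most of their range (0.15 ± 0.12, adjusted p = 0.442). Epas1 was at 86.4 to 125 CPM (median 93.5) in the A1 to A3 libraries and 94.2 to 135 (median 119.7) in the other treated libraries and was the 1 member that lay lower (-0.22 ± 0.09, adjusted p = 0.151). The LIGEL libraries among the A1 to A3 ones, at 124 and 125 CPM, were the 2 highest of the 6. The partner subunit Arnt was 0.11 ± 0.08 (adjusted p = 0.376) and the ubiquitin ligase subunit Vhl 0.20 ± 0.07 (adjusted p = 0.0965). Both were chosen after their values were seen.

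Within each group the median of the 35 was positive in a joint edgeR fit of all treated libraries. That joint fit called 0 genes within GEM or within LIGEL, with 1320 and 2183 genes at p under 0.05 before adjustment. The separate fit of LIGEL samples alone called 193 genes higher, 15 members among them, and 238 lower. The separate fit of GEM samples alone called 0 genes. The medians of the 35 were 0.65 in GEM (3 against 3 libraries), 0.89 in IGEL (1 against 5) and 0.61 in LIGEL (2 against 4). In the IGEL contrast the lone library is assumed to vary like the others. Every A1 to A3 library lay above every other library of its group for 14 of 35 genes in GEM (background 4.92%), 33 in IGEL (24.6%) and 33 in LIGEL (14%). The 13 genes for which this held in each of the 3 groups (background 0.866%) were Pfkfb3, Pgam1, Slc16a3, Vegfa, Bnip3, Ankrd37, Adm, Ndrg1, Ddit4, P4ha2, Higd1a, Egln1 and Egln3. Ndrg1 differed by 1.31 ± 0.59 in GEM, 1.93 ± 0.68 in IGEL and 1.42 ± 0.59 in LIGEL, and Egln3 by 1.22 ± 0.46, 1.55 ± 0.54 and 1.24 ± 0.46. Aldoc differed by 1.17 ± 0.29 in GEM and 0.24 ± 0.30 in LIGEL. Eno2 gave 0.18 ± 0.24 and 0.88 ± 0.24. A test of the difference between LIGEL and GEM called 0 genes (0%, 804 at an unadjusted p under 0.05). It gave -0.92 ± 0.43 for Aldoc, 0.70 ± 0.34 for Eno2 and 0.59 ± 0.15 for Epas1. Over the 35 genes the estimates ran from -1.03, for a hypoxia target, to 0.70, with a median of 0.006.

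Acinar transcripts were lower in most A1 to A3 libraries, with overlap. They took 0.00635 to 2.31% of counts in the A1 to A3 libraries (median 0.0591%) and 0.00605 to 18.4% in the other treated libraries (median 1.94%). All 22 acinar genes were lower in the A1 to A3 libraries, at a median of -5.07, and 0 of 22 passed. IGEL replicate 6, in another column, had the lowest acinar share of all 24 libraries, and its mean over the 35 genes (log2 CPM minus the mean of each gene) was 0.59, inside the range of 0.17 to 0.95 in the A1 to A3 libraries and the highest of the 12 others, which began at -0.62. With the acinar level as a covariate 0 members passed, and Pfkfb3 was 0.59, Egln3 0.83 and Ndrg1 0.92. Without the library richest in acinar transcripts of each treated group (GEM replicate 6, IGEL replicate 4 and LIGEL replicate 4) 8 members passed against 0.545% of all genes, at a median of 0.65. Whether acinar tissue has a part in the difference was not tested. Library totals (33.0 to 38.8 M against 30.7 to 40.5 M) and mitochondrial shares (1.13 to 1.55% against 0.921 to 1.53%) overlapped.

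**Figure D5:**
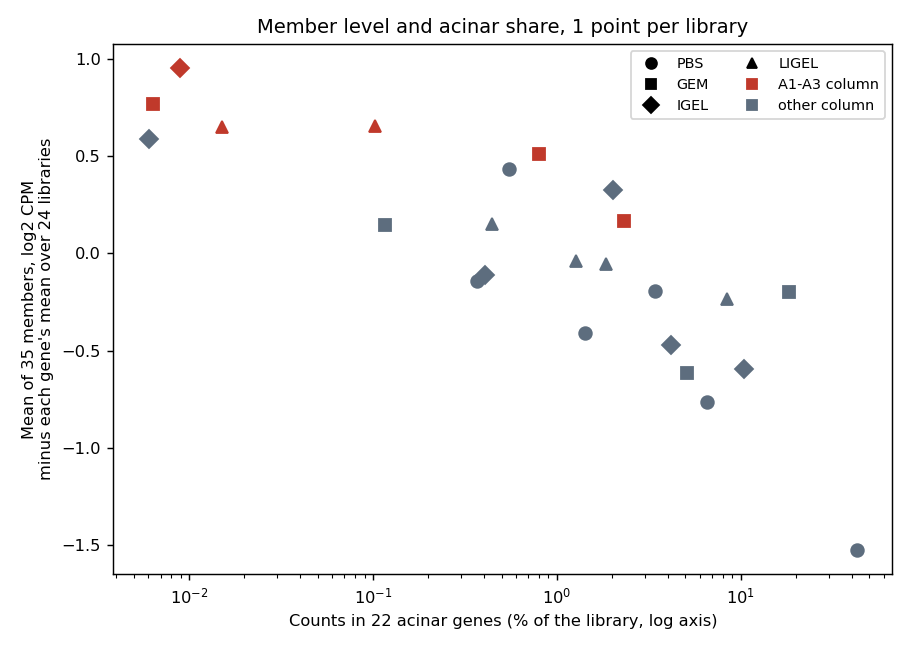
Mean level of the 35 genes (y axis, log2 CPM minus the mean of each gene over 24 libraries) against the share of counts in 22 acinar genes (x axis, %, log scale), 1 point per library, with shape for the group and red for A1 to A3 columns. The 4 libraries with the lowest acinar shares lie at 0.59 to 0.95, and PBS replicate 5, at 42.8%, lies lowest at -1.52.

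The calls of many genes changed with single libraries. The number of members called higher was 1 without IGEL replicate 1 (0.00528% of all genes), which is the only A1 to A3 library of its group and the highest of all 24 for 27 genes, and 33 without GEM replicate 5 (5.56%). It was 3 without LIGEL replicate 1 (0.079%), 6 without LIGEL replicate 2 (0.322%), 7 without GEM replicate 1 (0.464%), 8 without GEM replicate 4 (0.46%) and 13 without LIGEL replicate 4 (0.808%). It was 32 without GEM replicate 2 (4.04%) and without IGEL replicate 6 (3.48%). The share of all genes called higher moved with the count of members in these fits. The median of the 35 moved less, from 0.64 to 0.79. Of the single genes, Egln1 and Higd1a passed in 17 of the 18 fits, Vegfa, Egln3 and P4ha2 in 16, Ndrg1 in 13, P4ha1 and Pgam1 in 6 and Eno2 in 5.

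Other genes of the pathways were read from lists drawn up with earlier results of these data known. Of 29 further hypoxia genes 11 passed as higher in the A1 to A3 libraries and none as lower (median 0.42), where 1.65% of all genes were called higher. The 4 with the smallest p were the oxidase Ero1l (1.09 ± 0.23), the glycogen synthase Gys1 (0.74 ± 0.17), the adenylate kinase Ak4 (1.22 ± 0.28) and the histone demethylase Kdm4b (0.66 ± 0.16). Ak4 was at 36.9 to 70.7 CPM against 9.08 to 44.5 CPM, and Ero1l at 103 to 219 CPM against 43.3 to 152 CPM, with some overlap in both. Of 24 further glycolysis genes none passed as higher and 1 as lower (median -0.13), which was Pdk4 (-2.0 ± 0.52), a brake on pyruvate use by mitochondria that is known from fasting. Pdk4 was scarce, at 0.174 to 2.77 CPM against 0.676 to 7.21 CPM. Of 21 genes of the citrate cycle and oxidative phosphorylation 0 passed by edgeR in either direction (median -0.06), the smallest adjusted p being 0.109. In the comparisons with PBS none of these lists had a call, and the further hypoxia genes had medians of 0.27 in GEM, 0.21 in IGEL and 0.24 in LIGEL.

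Proliferation genes also moved with the column names, 10 of 12 lower in the A1 to A3 libraries (median -0.58) where 2.35% of all genes were called lower, among them Top2a at -0.66 ± 0.10 and Cdk1 at -0.55 ± 0.09. Against the same 2.35% lower and 1.65% higher, endothelium had 2 of 12 lower (Plvap and Tie1), fibroblasts 1 of 12 (Fbln1), and epithelium 1 of 12 higher (Sox9, 1.0 ± 0.19). The epithelium list as a whole had 5 of 12 genes positive and a median of -1.44. Of 10 immediate early genes, which respond to handling of tissue as well as to stimuli, Nr4a1 and Dusp1 passed as higher. Macrophage, neutrophil, T cell, islet, muscle and erythroid lists had no call. The genes of these lists were named after their values were seen. Summed levels in the A1 to A3 libraries against the other treated libraries were 996 to 1603 against 1319 to 2678 CPM for proliferation, 1821 to 2237 against 1014 to 2484 CPM for epithelium, 347 to 550.04 against 419 to 662 CPM for endothelium, 3389.5 to 12133 against 7067 to 23244 CPM for fibroblasts and 660.5 to 955 against 345 to 891 CPM for immediate early genes. The ranges overlapped in all 5, and the part of these cells and genes in the values of the 35 genes was not tested.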

How the data were processed

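RNA sequencing of 24 mouse samples gave 1 deposited table of raw read counts per gene, 54532 genes in all, in which the authors had not normalized the values. The submitters' processing notes name HISAT2, featureCounts, Subread and the mouse build mm10. Versions, strandedness and the annotation release are not given in the sources used here. Groups came from the sample labels. Genes with low counts were removed with filterByExpr (minimum count 10, minimum total 15), which took out 0.0666% of the counts and left 19253 genes in 24 samples and 18698 in the 18 treated samples.

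Counts were TMM-scaled and tested with the edgeR 4.0.16 quasi-likelihood test in R 4.3.3, with Benjamini-Hochberg adjustment over all genes tested and a threshold of 0.05. The 6 comparisons between groups used 1 fit of all 24 samples. The comparison by column name used the 18 treated samples with group as a covariate. Log2 CPM used a prior count of 2. The code was tested on simulated data with the same spread set for every gene, which does not represent the spread among these libraries. Alternatives were DESeq2 1.42.0, limma 3.58.1 voom with quality weights, other scalings, no filter, a replicate block, an acinar covariate and samples left out. Some fits were added after seeing the data. These left out PBS replicate 5, together with the A1 to A3 columns or with a term for them, or left out the acinar-rich libraries. Further added fits summed libraries of a shared column prefix within a group or kept 1 suffix. The genes and lists were chosen with earlier results of these data known. In each comparison between groups the text names 8 set genes and the 4 members with the smallest p, the comparison by column name gives every member, and further pathway lists give up to 4 genes with the smallest p in each direction among those that passed. The correlation of deviations between same-numbered samples of different groups ran from -0.59 to 0.71 over 36 pairs, so the numbers were not taken as pairs.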

Additional observations from a re-analysis of the deposited data

Results flagged for a closer look

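The sets looked at were 175, each of 1 gene in 1 group or in the A1 to A3 libraries, which also count in their own groups. Of these, 5 held a library set apart from the others by a large gap. That is a smaller share than the 1 in 20 or so that chance gives. PBS replicate 5 was far below the other PBS libraries for Hk1 (35 CPM, the next lowest 128), P4ha1 (35.6 CPM, the next lowest 143) and Hif1a (58.6 CPM, the next lowest 123). PBS replicate 6 was far above the others for Aldoc, at 22.7 CPM with the next highest at 9.31. Among the A1 to A3 libraries GEM replicate 2 was the lowest for Aldoc, at 19 CPM with the next lowest at 24.9.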

How the results depend on the processing

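In the comparison by column name, 21 of the 35 genes were called higher. The count, with the share of all genes called higher, was 33 with DESeq2 (4.74%) and with voom (7.78%), 10 without the low count filter (0.518%), 2 in all 24 samples (0.0312%), 0 with the acinar covariate (0%), 0 in GEM samples alone (0%), and 8 without the most acinar-rich library of each treated group (0.545%). It was 3 with columns of a shared prefix summed within a group (0.0903%) and 0 with either suffix alone (0%), where fewer libraries were compared. Leaving out 1 library gave 1 to 33 calls (0.00528 to 5.56%) and a median of 0.64 to 0.79. With a replicate block, which overlaps with the column names, 0 were called (0.00535%). The labels do not pair samples by number. Of the same-numbered pairs 14 of 36 had a correlation over 0.1, and 6 of 24 samples matched their own number best. In LIGEL samples alone Hif1a was -0.0100 and Epas1 0.15. The cause of these moves was not tested.

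Against PBS, the LIGEL comparison had 1 member called with DESeq2 and with voom (Aldoc), and edgeR called 0 members with any library left out, where medians ran from 0.31 to 0.61 in GEM, 0.21 to 0.64 in IGEL and 0.37 to 0.73 in LIGEL. Between treated groups they ran from -0.16 to 0.18 (IGEL against GEM), -0.08 to 0.20 (LIGEL against GEM) and -0.09 to 0.21 (LIGEL against IGEL). Library totals without a composition factor moved the median of all genes in LIGEL from -0.03 to 0.10.

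Signs turned for some genes, none of them called. Without the A1 to A3 libraries GEM gave Vegfa -0.35, Bnip3 -0.24, Pfkfb3 -0.031 and Epas1 0.0053, IGEL gave Epas1 0.0041, and LIGEL gave Vegfa -0.31. With a term for them GEM gave Vegfa -0.41 and Bnip3 -0.16, IGEL gave Epas1 0.0054, and LIGEL gave Vegfa -0.26 and Epas1 0.016. With the term and without PBS replicate 5 GEM gave Slc2a1 -0.12, Ldha -0.12, Pgk1 -0.069, Vegfa -0.17, Bnip3 -0.080, Egln3 -0.13 and Epas1 0.061, IGEL gave Epas1 0.15, and LIGEL gave Vegfa -0.012 and Epas1 0.16. With the acinar covariate Vegfa was -0.078 in GEM, -0.11 in IGEL and -0.15 in LIGEL, Bnip3 -0.045 in IGEL, and Epas1 0.078 in IGEL and 0.032 in LIGEL. Epas1 also turned with voom (0.11 in IGEL, 0.055 in LIGEL), without a composition factor (0.15 and 0.13), with a replicate block (0.0032 in IGEL) and without PBS replicate 1 (0.0085 in IGEL) or 5 (0.12 in IGEL, 0.079 in LIGEL).

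Without the A1 to A3 libraries and PBS replicate 5, a fit chosen after seeing the data, GEM gave Slc2a1 -0.12, Ldha -0.090, Pgk1 -0.056, Vegfa -0.073, Bnip3 -0.12, Egln3 -0.084, Hif1a -0.081 and Epas1 0.18, IGEL gave Ldha -0.011 and Epas1 0.19, and LIGEL gave Vegfa -0.018 and Epas1 0.037. The opposite ends with libraries left out were, in GEM, 1.26 for Slc2a1, 0.61 for Ldha, 0.85 for Pgk1, 0.54 for Vegfa, 0.92 for Bnip3, 1.35 for Egln3, 0.42 for Hif1a and -0.28 for Epas1, in IGEL 0.61 for Ldha and -0.14 for Epas1, and in LIGEL 0.53 for Vegfa and -0.18 for Epas1.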
